A study of Mus musculus with 155 samples.

Results

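Solute carriers (SLC proteins) were followed across 5 populations of sorted mouse brain cells. Members were the genes whose symbol is Slc, a number, the letter a and a number, with Slc6a9 left out by the rule, and 39 of the 3422 genes in the deposited table met it. GENCODE vM21, the gene annotation used for positions, lists 349 such genes, so most of the superfamily was not analysed here. The sources used here do not say how the 3422 genes were chosen.

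Solute carriers are membrane proteins that move small molecules by facilitated diffusion, by exchange or by coupling to an ion gradient, usually that of sodium. Their families are named by number, and each family carries related cargo: amino acids, sugars, organic ions, metals, vitamins, phosphate, or the metabolites that cross the inner mitochondrial membrane. In brain white matter they supply cells that build myelin with fuel, lipid precursors and iron, and in neurons they also clear transmitters.

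Cells came from the subventricular zone, where neuroblasts are born, and the corpus callosum, the white matter above it. The mice were 8 to 10 weeks of age, and polyadenylated RNA of each cell was read with SMART-Seq2, which covers transcripts over their full length. NB (37 cells, Gad67-GFP+, strain CB6-Tg(Gad1-EGFP)G42Zjh/J) and O (29 cells, Olig2-Tomato+, strain Olig2-tdTomato TH39Gsat/Mmcd) were taken from healthy mice without injection. NBL (27 cells, GFP+, the NB strain), OL (22 cells, Tomato+, the O strain) and OligNBL (40 cells, positive for both, from a cross of both strains) were taken from demyelinated mice 6 days after an injection of LPC, a lipid that strips myelin. The labels give 5 mice per condition and tie no cell to a mouse, so each population was 1 sample and no test between populations was possible. Every difference below is thus a description of these cells with no replicate check. The controls had no sham injection, and gates differ in strain as well as in cell type: NB and NBL share a strain, as do O and OL, but no other pair does. The titles of the OligNBL cells carry the control mark, against their labelled lesion state, and the label was used. Each gate marks cells in which the Gad1 or Olig2 reporter had been active, so it does not itself fix a cell type.

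The values, named estimated counts, had nearly the same distribution in every cell (column totals 5155899 to 5161091), so they carry no sequencing depth, which is unknown. A level here is the mean of log2(value + 1) over the cells of a population, given with the SD between cells. A member was called higher or lower where 2 levels differed by at least 2, which is 4-fold on the scale of value + 1 and understates the change of low genes. Presence is the number of cells with a gene among their 500 highest genes, over the cells with that many genes detected, which left out 2 NB cells. Levels are not scaled to transcript length and are not compared between genes. The most common value above 0 of a cell, shared by 83 to 307 genes, lay between 0.0093 and 5.07 on the log2(value + 1) scale, so in some cells a value under about 5 lies at the low end of what was measured.

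Cells with neighbouring numbers were alike, and this shapes every result below. Joining cells at a mean correlation of 0.4, over the genes that are not members, gave 20 sets of alike cells. They hold 149 of the 155 cells in 21 parts of at least 3 cells of 1 population. A part is named by the titles of its cells with the lowest and highest number (OL cells CRBT172 to CRBT179, for example, are 8 cells), and cells of other parts can carry numbers in between. The source of the sets is not given, and cells of a set were not treated as independent. In 1 set 3 OL cells (CRBT192 to CRBT194) were joined with 9 O cells (within CRBT195 to CRBT208), and 2 sets joined NB with NBL cells. The most alike pair was OL cells CRBT176 and CRBT177 (correlation 0.895), which were not identical and were both kept. In each comparison, members with levels at least 2 apart and with no overlap of set means between both populations are called apart. No least gap between set means was required, so the nearest ones can differ by little. Shares of all genes below use every set. Counts of members after a set is left out have no such share beside them. With fewer set means an overlap is less likely for any gene. A median of 8 members was detected per NB cell, 9 per NBL, 16 per OligNBL, 16 per OL and 14 per O cell, beside medians of 1114, 1161, 1397, 950.5 and 1187 genes of the whole table. OL cells thus had the lowest median of genes detected but shared the highest median of members detected.

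Marker lists matched the gates in part. The values of 10 oligodendrocyte markers were summed in each cell, and the mean of log2(sum + 1) was 18.6 in OL (10.7 to 21.4 over cells) and 17.3 in O (14.5 to 20.7), against 1.77 in NB, 1.95 in NBL and 1.34 in OligNBL, and Cldn11 and Mal were listed at 0 in all NB and NBL cells. The 10 neuroblast markers gave 12.4 in NB, 11.7 in NBL, 12.6 in OligNBL, 5.58 in OL and 3.73 in O. Near-equal sums hid single markers that differed in opposite directions. Sp8 was at 7.63 in NB, 1.74 in NBL and 0.60 in OligNBL, and Nrep at 0.67, 8.01 and 4.14. The 6 progenitor markers gave 7.81 in OligNBL (0 to 20.2) and between 1.80 and 5.36 in the others. Of these Pdgfra, Cspg4, Ptprz1 and Lhfpl3 had their highest level in OligNBL. Sox10 did not, at 0.58 in OligNBL, 4.47 in OL and 1.94 in O. Olig1 did not either, at 0.90 in OligNBL, 1.52 in NBL and 1.09 in OL. Of 8 astrocyte markers only S100b was measured, with levels between 0.90 and 2.30. Of 7 endothelial markers only Pecam1 was measured, at 6.54 in NB, 8.59 in NBL, 8.11 in OligNBL, 8.49 in OL and 10.5 in O. Of 5 mature neuron markers only Snap25 was measured, at 0.23 in NB, 0.24 in NBL, 1.71 in OligNBL, 2.02 in OL and 6.20 in O. Both were thus highest in O and lowest in NB, and their part in the comparisons was not tested. No marker of microglia, mural cells, ependyma or choroid plexus was measured, so a share of those cells could not be checked.

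Members that each led 1 population or 1 set are shown first by the 250 bases before their transcription start (RefSeq, GRCm38.p6, 5′ to 3′ on the gene's strand). Slc19a2 (chr1:164248796-164249045, plus strand) led in NBL cells. Slc29a4 (chr5:142701851-142702100, plus, at a start inside the gene's span) led in NB cells. Slc22a17 (chr14:54913133-54913382, minus) led in OligNBL cells. Slc27a1 (chr8:71568621-71568870, plus, the first of its 3 listed starts) led in OL cells, and Slc7a6 (chr8:106168604-106168853, plus, the first of 2) in OL and O cells of a joined set. Capitals mark 3 motifs searched on both strands: the GC box GGGCGG, the CCAAT box CCAAT and the Sox motif ACAAAG. Where GC boxes overlap, as in Slc29a4, 1 run of capitals holds them.
Slc19a2: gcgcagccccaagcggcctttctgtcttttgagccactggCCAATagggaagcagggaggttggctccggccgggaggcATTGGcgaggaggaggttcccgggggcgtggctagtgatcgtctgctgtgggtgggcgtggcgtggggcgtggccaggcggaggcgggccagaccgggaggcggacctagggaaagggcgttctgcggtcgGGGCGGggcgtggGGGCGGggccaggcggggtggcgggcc
Slc29a4: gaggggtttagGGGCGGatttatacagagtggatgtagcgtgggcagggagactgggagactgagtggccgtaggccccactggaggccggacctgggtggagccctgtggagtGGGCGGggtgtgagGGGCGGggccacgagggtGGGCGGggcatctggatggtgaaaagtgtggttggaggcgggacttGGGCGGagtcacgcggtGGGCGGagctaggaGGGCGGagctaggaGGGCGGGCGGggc
Slc22a17: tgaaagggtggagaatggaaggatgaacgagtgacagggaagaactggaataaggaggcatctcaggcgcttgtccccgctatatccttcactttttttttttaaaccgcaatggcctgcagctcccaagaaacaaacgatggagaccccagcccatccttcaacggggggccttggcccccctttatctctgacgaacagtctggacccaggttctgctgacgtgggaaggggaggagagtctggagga
Slc27a1: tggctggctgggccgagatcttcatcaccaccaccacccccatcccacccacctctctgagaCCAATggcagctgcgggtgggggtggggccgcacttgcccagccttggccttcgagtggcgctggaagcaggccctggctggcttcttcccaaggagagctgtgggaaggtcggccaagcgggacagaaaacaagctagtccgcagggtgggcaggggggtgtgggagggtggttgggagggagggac
Slc7a6: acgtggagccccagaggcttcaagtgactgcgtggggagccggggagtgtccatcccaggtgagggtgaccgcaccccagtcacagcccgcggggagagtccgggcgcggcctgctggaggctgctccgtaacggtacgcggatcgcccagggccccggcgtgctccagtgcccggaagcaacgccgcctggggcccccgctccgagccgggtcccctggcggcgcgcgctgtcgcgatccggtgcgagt
The Slc29a4 promoter held 9 GC boxes, that of Slc19a2 held 2 GC and 2 CCAAT boxes, and the window shown for Slc27a1 held 1 CCAAT box. Of the other Slc27a1 windows, chr8:71569347-71569596 held 1 GC box. The window chr8:71570344-71570593 held 3 GC boxes and 1 CCAAT box. These motifs were not found in the windows shown for Slc22a17 and Slc7a6, and the other Slc7a6 window (chr8:106168671-106168920) held 1 GC box. RefSeq promoters were matched for 29 of the 39 members, giving 36 windows. A GC box lay in 19 of the 36 (32.7% of 32817 promoters of all genes), a CCAAT box in 13 (33.8%) and a Sox motif in 5 (16.5%). A match is a string of letters and not a shown binding site.

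In NBL against NB, the comparison of GFP+ cells with and without demyelination, 2 members differed by at least 2. Slc19a2, which carries thiamine into cells, was higher in NBL, and Slc29a4, a carrier of monoamines, was lower. Of 39 members 1 was thus higher (9.76% of all 3422 genes were) and 1 lower (8.39% of all genes), and 1 lay apart (2.07% of all genes). The median difference was 0.00 over members and -0.0033 over all genes. The other 37 members differed by between -0.78 and 1.87. The call of Slc19a2 rested on NBL cells CRBT78 to CRBT84, without which the difference was 1.65 and no member was called higher. The count of members called higher was 2 without NB cells CRBT1 to CRBT5, NBL cells CRBT58 to CRBT61 or NBL cells CRBT62 to CRBT65, and 4 without NBL cells CRBT66 to CRBT77. The number apart was 2 without NBL cells CRBT58 to CRBT61 or CRBT66 to CRBT77.

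In OL against O, the Tomato+ cells with and without demyelination, 8 members were higher in OL and 4 lower. Higher were the carnitine carrier Slc22a5, the phosphate carriers Slc20a1 and Slc20a2, the taurine carrier Slc6a6, the fatty acid transporter Slc27a1, Slc37a3, the amino acid carrier Slc38a2 and the zinc importer Slc39a1. Lower were Slc4a2, Slc38a6, Slc7a6 and Slc10a2. The shares were 20.5% higher and 10.3% lower, beside 8.36% and 7.92% of all genes. Set means lay apart for Slc22a5, Slc4a2 and Slc10a2 (2.75% of all genes were apart). The median difference was 0.18 over members and -0.0986 over all genes, and the members' median was between -0.19 and 0.47 over the alternatives tried. Leaving out OL cells CRBT172 to CRBT179 ended 7 of the 12 calls, those of Slc38a2, Slc37a3, Slc6a6, Slc27a1, Slc20a2 and Slc39a1 among the higher and Slc7a6 among the lower, although other members then passed 2 and 6 were called higher. Without OL cells CRBT183 to CRBT190 the difference of Slc20a1 was -0.28, a turned direction. The number apart was 5 without OL cells CRBT172 to CRBT179, CRBT180 to CRBT182 or CRBT183 to CRBT190, 8 without OL cells CRBT192 to CRBT194 and 6 without O cells CRBT21 to CRBT222. The share of all genes apart is not given without these sets, so these numbers cannot be set against 2.75%. Only Slc22a5 and Slc38a6 stayed past 2 whichever set was left out.

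In OligNBL against NBL, cells with both reporters against GFP+ cells of demyelinated mice, 7 members were higher and 1 lower. Higher were the neuronal glucose carrier Slc2a3, the mitochondrial carriers Slc25a13 and Slc25a10, the iron importer Slc11a2, the lipocalin receptor Slc22a17, the riboflavin carrier Slc52a2 and the zinc importer Slc39a10. Slc19a2 was lower. The 17.9% higher stood beside 12.2% of all genes, the 2.56% lower beside 10.3%, and 2 members (Slc25a13 and Slc11a2) lay apart, beside 6.55% of all genes. Their margins were small. The lowest OligNBL and highest NBL set means were 0.04 and 0.00 for Slc25a13 and 0.69 and 0.38 for Slc11a2. Medians were 0.15 over members and 0.035 over all genes. Leaving out OligNBL cells CRBT123 to CRBT134 ended the calls of Slc22a17, Slc52a2, Slc11a2 and Slc39a10 and left 1 member apart. The call of Slc19a2 ended without NBL cells CRBT78 to CRBT84 (-0.36), where 2 others were then called lower, and 3 members were called lower without NBL cells CRBT66 to CRBT77. The number apart was 5 without NBL cells CRBT66 to CRBT77 and 6 without OligNBL cells CRBT10 to CRBT113.

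In OligNBL against OL, cells with both reporters against Tomato+ cells of demyelinated mice, 6 members were higher in OligNBL and 12 lower. Those higher included Slc11a2, Slc22a17, Slc52a2, Slc25a10 and Slc2a3. Lower were the heme carrier Slc48a1, Slc12a9, Slc22a5, Slc22a21, Slc27a1, Slc6a6, Slc37a3, Slc20a1, Slc20a2, Slc39a1, Slc7a6 and the adenine nucleotide carrier Slc25a5. The shares were 15.4% higher beside 13.2% of all genes, and 30.8% lower beside 12.2%. Set means lay apart for 7 members (among them Slc22a5, Slc22a17, Slc11a2, Slc25a10, Slc27a1 and Slc12a9), or 17.9% beside 9.12% of all genes. Some margins were small. The lowest OligNBL and highest OL set means were 0.12 and 0.00 for Slc25a10 and 0.59 and 0.32 for Slc22a17. Medians were -0.25 over members and 0.13 over all genes. Of the 18 calls, 13 ended when some set was left out. OL cells CRBT172 to CRBT179 carried those of Slc37a3, Slc6a6, Slc20a2 and Slc39a1, and OL cells CRBT183 to CRBT190 those of Slc25a5, Slc20a1, Slc12a9 and Slc22a21. Without OligNBL cells CRBT123 to CRBT134 the number called higher was 3.

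In O against NB, the healthy Tomato+ and GFP+ cells, 7 members were higher in O and 1 lower. Higher were Slc12a9, the anion exchanger Slc4a2, Slc38a6, Slc48a1, Slc7a6, the bile acid carrier Slc10a2 and Slc19a2, and Slc29a4 was lower. The shares were 17.9% higher beside 12.3% of all genes and 2.56% lower beside 13.5%. Set means lay apart for 6 members, or 15.4% beside 13.8% of all genes. Medians were 0.27 over members and 0.0938 over all genes. Calls of Slc10a2 (1.15) and Slc19a2 (1.55) ended without O cells CRBT203 to CRBT215, and the other 6 stayed past 2 whichever set was left out. The 5 comparisons share populations and are not independent of each other.

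**Figure D1:**
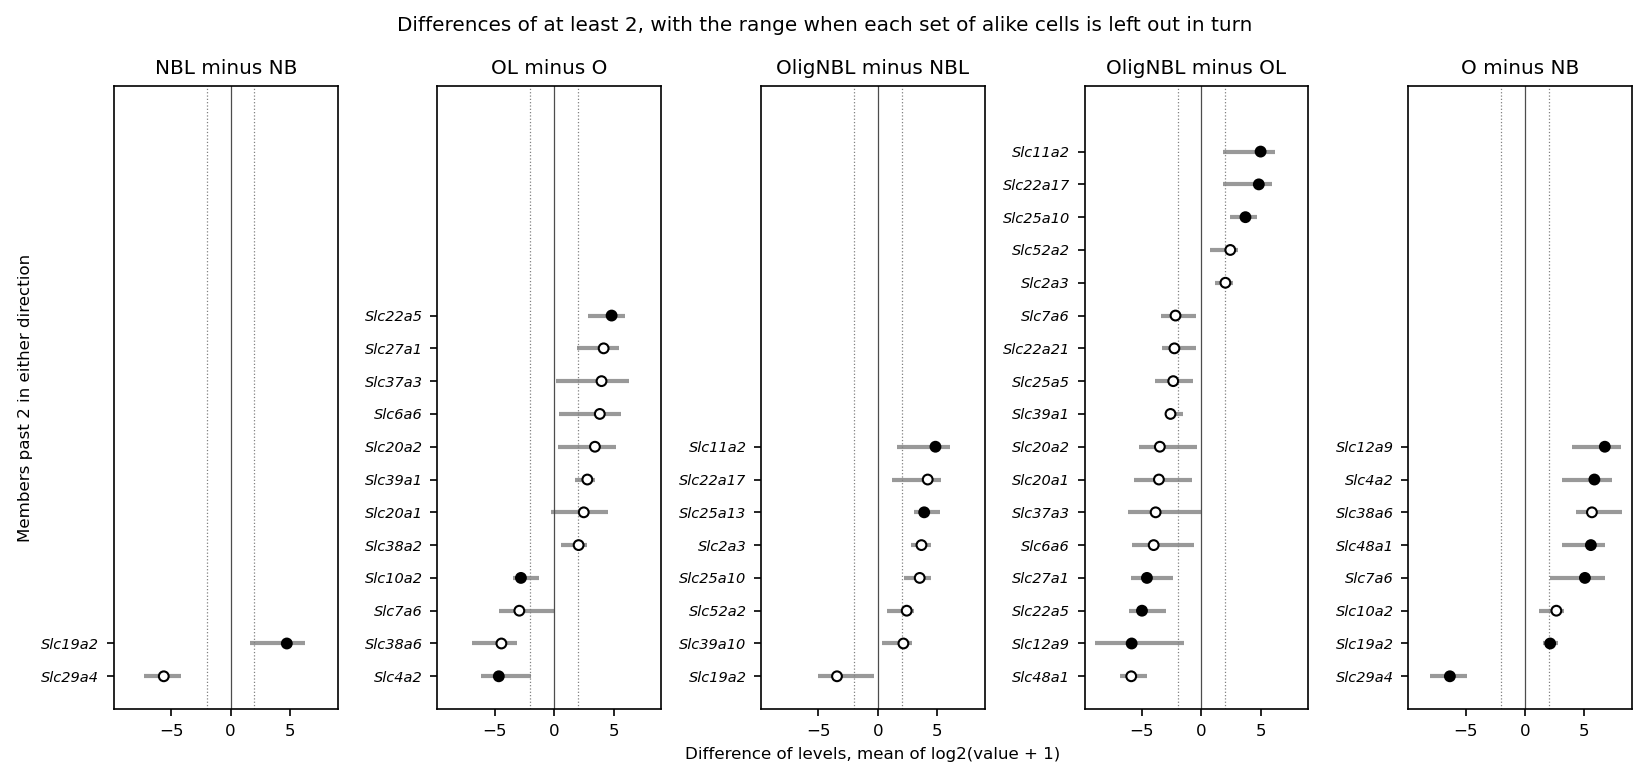
Members whose levels differed by at least 2 in each comparison. The x axis is the difference of levels, mean of log2(value + 1), first population minus second, with dotted lines at 2 either side of 0. Filled points are members whose set means lay apart, and grey bars span the differences found when each set of alike cells was left out in turn. Bars of 31 of the 47 points drawn reach inside the dotted lines, and that of Slc20a1 in OL minus O crosses 0.

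Across all comparisons 26 of the 39 members were called at least once, and 17 of the 48 calls stayed past 2 whichever set was left out. Neither count was made over all genes, so neither says whether members differ from other genes. By population, 13 members had their highest level in OL, 11 in OligNBL, 9 in O, 5 in NBL and 1 in NB, or 33.3%, 28.2%, 23.1%, 12.8% and 2.56%. Over all genes these shares were 16.7%, 26.8%, 19.7%, 17.3% and 19.5%. A level of at least 2 was reached by 30 members in some population and by 2, among them Slc6a20b, in all. These counts of levels were not made over all genes either.

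**Figure D2:**
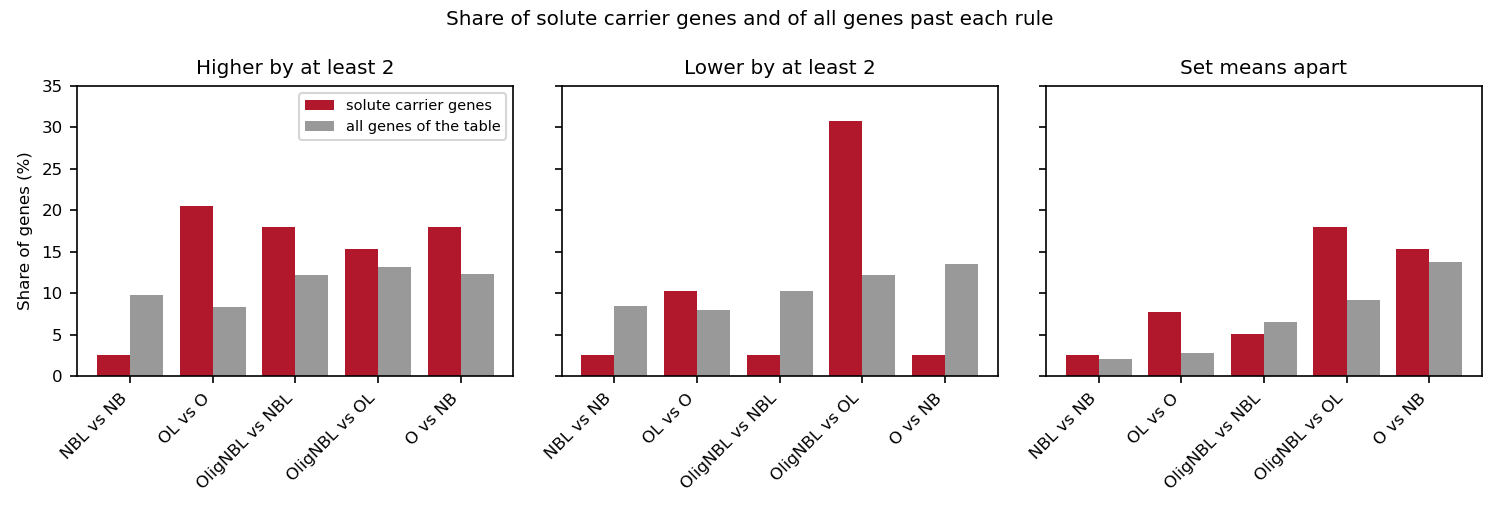
Share of the 39 solute carrier genes (red) and of all 3422 genes (grey) called higher, called lower or apart in each comparison, with the share in percent on the y axis. The widest gap is among genes lower in OligNBL than in OL (30.8% against 12.2%), and in NBL against NB both directions lie under the share of all genes.

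Among carriers of neurotransmitters and related compounds, 1 member was present in most cells of every population. Slc6a20b, a relative of the brush border imino acid carrier, was at 6.75 ± 3.78 in NB, 6.93 ± 2.85 in NBL, 5.40 ± 2.36 in OligNBL, 5.64 ± 2.13 in OL and 6.26 ± 1.96 in O. Presence was 32 of 35 cells in NB, 26 of 27 in NBL, 34 of 40 in OligNBL, 18 of 22 in OL and 29 of 29 in O. None of the comparisons called it. Exons of Sacm1l overlap this gene and hold 20.5% of its 31-base words, and the protocol as labelled is not stated to keep strand, so reads of both cannot be told apart there.

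Slc6a6, the taurine transporter, was by contrast nearly confined to 1 set. Its OL values ran from 0 through a median of 2.01 to 14.8, against medians of 0 in NB, NBL, OligNBL and O, where it was listed at 0 in all 37 NB cells and its highest value was 3.49 in O. Within OL the 8 cells CRBT172 to CRBT179 lay between 7.35 and 14.8 and the other 14 between 0 and 2.95. The 2 ranges did not overlap, and the OL level of 4.13 ± 4.95 fell short of 2 over that of O without these 8 cells (difference 0.44).

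Slc20a1, Slc20a2 and Slc37a3 were grouped by family as phosphate and related carriers. All 3 were higher in OL than in O (8.36% of all genes were), with a median difference of 3.43. All were lower in OligNBL than in OL (12.2% of all genes), with a median of -3.57. They did not lead in the same cells, and each of these calls ended when 1 OL set was left out. Slc37a3, a member of the sugar phosphate exchanger family, was at 4.00 ± 5.57 in OL and at most 0.15 elsewhere. The 8 OL cells CRBT172 to CRBT179 lay between 7.33 and 17.7, the highest of the other 14 was 2.32, and without the 8 cells OL differed from O by 0.15. Slc20a2, a sodium-phosphate cotransporter, was at 3.49 ± 4.71 in OL against 0.07 ± 0.35 in O. It lay between 5.12 and 14.9 in the same 8 cells and at up to 3.15 in the others. Slc20a1, its paralogue, was at 0.00 in those 8 cells and led in OL cells CRBT183 to CRBT190 instead, which lay between 5.17 and 15.2 around a mean of 8.47. In the other 2 OL sets the means were at most 0.77 for Slc20a2 and at most 2.29 for Slc20a1. Slc20a1 had a level of 3.64 ± 4.28 in OL and 1.15 ± 2.24 in O. That difference was 1.57 with a pseudocount of 10. Other genes hold 10.9% of the 31-base words of Slc20a1.

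**Figure D3:**
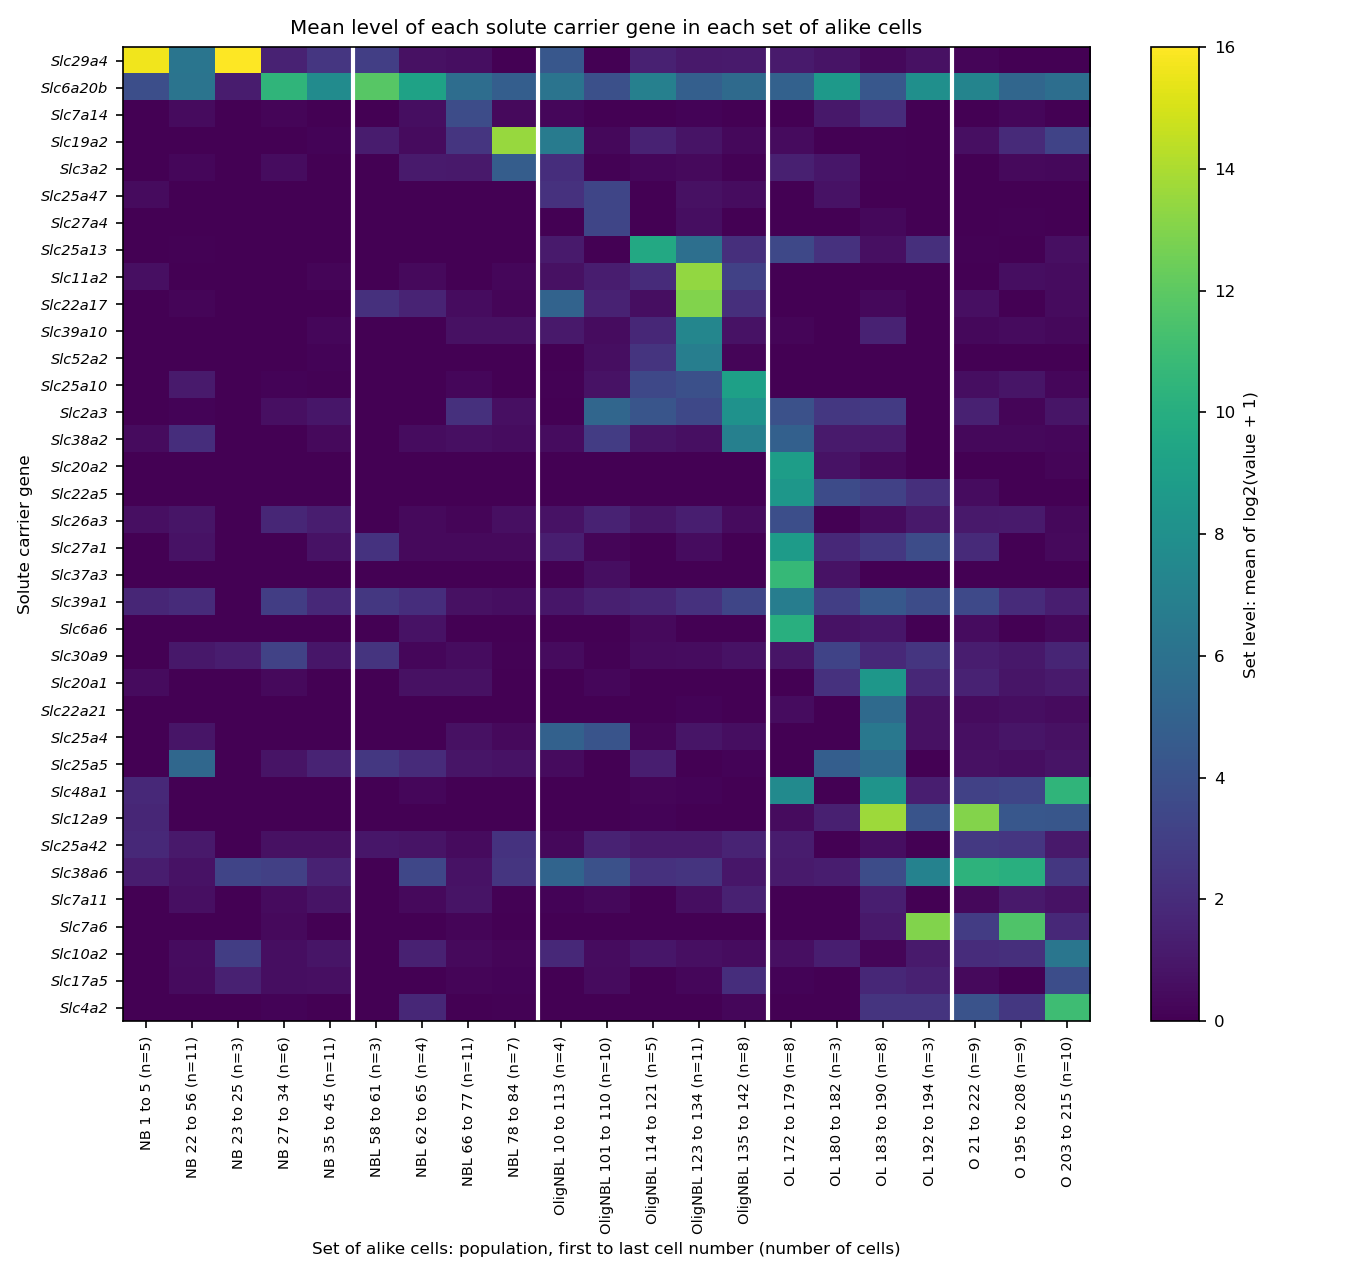
Mean level, log2(value + 1), of each of the 36 solute carrier genes drawn (rows) in each of the 21 parts of sets (columns, grouped by population and named by their lowest and highest cell number). Bright squares mark high levels (the colour scale ends at 16), many of them in 1 column of a population, such as Slc37a3 and Slc6a6 in OL cells CRBT172 to CRBT179 and Slc11a2 and Slc22a17 in OligNBL cells CRBT123 to CRBT134.

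Among organic ion carriers, Slc22a5 and Slc22a21 carry carnitine, which shuttles fatty acids into mitochondria. Slc22a5 (GRCm38 chromosome 11, 53864542 to 53891660, minus strand) was listed at 0 in every NB, NBL and OligNBL cell. OL values ran from 0 through a median of 4.48 to 15.9 (level 5.00 ± 3.64) and O values from 0 to 2.18 (0.17 ± 0.56). Its presence in OL was 13 of 22 cells (59.1%, exact binomial 95% interval 36.4% to 79.3%). In OligNBL presence was 0 of 40, and the upper limit of that interval is 8.81%. These intervals take cells to be independent, which sets of alike cells are not, and hold counting error alone. All 4 OL sets, with means from 2.19 to 8.49, lay above all O sets, whose highest mean was 0.53. Slc22a21, its neighbour on the chromosome, was at 2.31 ± 3.18 in OL and led in other cells: OL cells CRBT183 to CRBT190 had a mean of 5.55 and the highest of the remaining 14 was 4.21. Its OligNBL minus OL difference of -2.27 was -1.05 with a pseudocount of 10. The pair shares 35.8% of the 31-base words of Slc22a5, so assignment of reads between them is uncertain.

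Slc22a17, a receptor for the iron-binding protein lipocalin-2, was high in OligNBL cells. Its values there ran from 0 through a median of 1.35 to 18.99 (level 4.95 ± 6.00), against highest values of 4.32 in NBL and 1.78 in OL. The 11 OligNBL cells CRBT123 to CRBT134 lay between 8.38 and 18.99 and the other 29 between 0 and 15.1, with 3 of those 29 having it among their 500 highest genes. OligNBL minus OL was 4.84, and 1.80 without the 11 cells.

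Of 4 metal ion carriers, 2 were higher and 0 lower in OligNBL against NBL (12.2% and 10.3% of all genes were), 1 higher and 1 lower in OligNBL against OL (13.2% and 12.2%), and 1 higher and 0 lower in OL against O (8.36% and 7.92%). Slc11a2, the divalent metal transporter that brings iron into the cytosol (chromosome 15, 100387898 to 100425072, minus strand), had the same leading cells as Slc22a17. Its OligNBL values ran from 0 through a median of 1.77 to 19.5 (4.99 ± 5.96), against at most 2.07 in NBL and 0 in all 22 OL cells. The 11 cells CRBT123 to CRBT134 had values of at least 8.11 and a mean of 13.4, and the other 29 a mean of 1.79. The gene overlaps the coding gene Gm5475, which holds 4.96% of its 31-base words. Slc39a10, a zinc importer of the plasma membrane, followed in the same 11 cells (mean 7.32, lowest 4.17) and had a population level of 2.63 ± 3.86 against 0.48 ± 1.15 in NBL. Slc39a1, another zinc importer, was the most widely detected of the 4. Its levels were 1.91 ± 2.41 in NB, 1.24 ± 1.74 in NBL, 2.37 ± 3.05 in OligNBL, 4.97 ± 2.94 in OL and 2.18 ± 2.15 in O, and its presence in OL was 16 of 22 cells. The pseudogene Slc39a1-ps holds 26.4% of its 31-base words, so its values are uncertain. With a pseudocount of 10 OL minus O was 1.62 for Slc39a1 and OligNBL minus OL was -1.38, and OligNBL minus NBL was 1.30 for Slc39a10. Slc30a9, a mitochondrial zinc transporter, lay between 0.54 and 1.77 in all populations.

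Vitamin and heme carriers had a different leading population each. Slc19a2, the thiamine transporter (chromosome 1, 164249046 to 164265385, plus strand), had NBL values from 0 through a median of 2.15 to 20.2 (4.77 ± 5.97), and only 1 of 37 NB cells had a value above 0, at 1.45. The 7 NBL cells CRBT78 to CRBT84 lay between 11.6 and 20.2, and the other 20 had a mean of 1.69 and a highest value of 11.7. In OligNBL its level was 1.33 ± 2.40 and in O 2.16 ± 2.23. The difference of O over NB, 2.12, was 0.77 with a pseudocount of 10. Slc52a2, a riboflavin transporter, was at 2.43 ± 3.63 in OligNBL, listed at 0 in every NBL, OL and O cell, and led again in OligNBL cells CRBT123 to CRBT134 (mean 6.83, lowest 4.00). With a pseudocount of 10 its difference over both NBL and OL was 1.29.

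Slc48a1, which moves heme out of endosomes and lysosomes (chromosome 15, 97778520 to 97792692, plus strand), was high in both Tomato+ populations. Values ran from 0 through a median of 5.96 to 14.2 in OL (5.98 ± 4.22) and from 0 through 5.45 to 16.9 in O (5.80 ± 4.73), against 1 of 37 NB cells and 1 of 27 NBL cells above 0. In OligNBL the highest value was 1.29. Presence was 16 of 22 cells in OL, 15 of 29 in O, 0 of 35 in NB, 0 of 27 in NBL and 0 of 40 in OligNBL. The NB cell above 0 had a value of 9.23 and was left out of presence, having fewer than 500 genes detected. Its set means still ran from 0.00 in OL cells CRBT180 to CRBT182 to 8.31 in OL cells CRBT183 to CRBT190, so OL and OligNBL sets overlapped, whereas all O sets, from 3.10, lay above all NB sets.

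Of the 7 mitochondrial carriers, 2 were higher and 0 lower in OligNBL against NBL (12.2% and 10.3% of all genes were), with a median difference of 1.35 beside 0.035 over all genes. In OligNBL against OL 1 was higher and 1 lower (13.2% and 12.2% of all genes). Slc25a13, the aspartate-glutamate carrier citrin of the malate-aspartate shuttle, was listed at 0 in all 27 NBL cells and had OligNBL values from 0 through 3.17 to 13.4 (3.91 ± 4.00). OligNBL cells CRBT114 to CRBT121 had a mean of 9.67, and cells CRBT101 to CRBT110 a mean of 0.04. In OL it was at 2.12 ± 2.70. Slc25a10, the dicarboxylate carrier, was at 3.71 ± 4.12 in OligNBL, 0.18 ± 0.53 in NBL and listed at 0 in all 22 OL cells. It led in OligNBL cells CRBT135 to CRBT142 (mean 9.07), and the difference of 3.53 over NBL was 2.19 without these cells.

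The adenine nucleotide carriers exchange ATP for ADP. Slc25a5 was above 0 in 17 of 37 cells in NB, 12 of 27 in NBL and 10 of 22 in OL, but in 8 of 40 in OligNBL and 6 of 29 in O. Slc25a4 was above 0 in 21 of 40 cells in OligNBL and 9 of 22 in OL, but in 3 of 37 in NB, 5 of 27 in NBL and 5 of 29 in O. Slc25a5 was at 2.19 ± 2.90 in NB, 1.496 ± 2.42 in NBL, 0.33 ± 0.88 in OligNBL, 2.70 ± 3.55 in OL and 0.70 ± 1.58 in O, and only its OligNBL minus OL difference passed 2 (-2.37, or -1.28 with a pseudocount of 10). Other genes hold 49.4% of its 31-base words, most of them in Gm5560, so its values are uncertain. Slc25a4 was at 0.27 ± 1.29, 0.39 ± 0.99, 1.97 ± 2.68, 2.43 ± 3.68 and 0.75 ± 2.18 in the same order. All 8 OL cells CRBT183 to CRBT190 had it at 4.49 or more and no other OL cell above 2.14. Slc25a42, a coenzyme A carrier, and Slc25a47 had levels of at most 2.001 and 1.35.

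Among carriers of amino acids, Slc7a6, the light chain y+LAT2 that exchanges cationic for neutral amino acids, had its highest means in the set shared by OL and O. O values ran from 0 through a median of 2.75 to 12.8 (5.11 ± 5.33) and OL values from 0 through 0 to 17.7 (2.18 ± 4.71), and it was listed at 0 in all 40 OligNBL cells. OL cells CRBT192 to CRBT194 had a mean of 12.99 and O cells CRBT195 to CRBT208 a mean of 11.6. High values were not confined to that set. The other 20 O cells had a mean of 2.21 and a highest value of 12.8, and 3 of them had it among their 500 highest genes. Without those O cells the OL minus O difference of -2.94 was -0.03, and with a pseudocount of 10 it was -1.89. OligNBL minus OL was -2.18, or -0.47 without the 3 OL cells CRBT192 to CRBT194 and -1.44 with a pseudocount of 10. Its heavy chain Slc3a2 did not follow it, with 1.85 ± 2.29 in NBL as its highest level and 0.24 ± 0.80 in O. Slc7a11, the cystine-glutamate exchanger, lay between 0.49 and 0.72 in all populations, and Slc7a14 between 0.07 and 1.72.

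Slc38a6, a sodium-coupled carrier of glutamine, was at 7.37 ± 4.82 in O (0 to 18.5 around a median of 8.31), 2.92 ± 3.58 in OL, 2.82 ± 2.60 in OligNBL, 1.73 ± 2.51 in NB and 1.72 ± 2.01 in NBL. O cells CRBT195 to CRBT208 (mean 10.1) and CRBT21 to CRBT222 (10.4) were high, and O cells CRBT203 to CRBT215 were at 2.59. The annotation gives 31.3% of its 31-base words to Noct as well, whose own level was 4.51 ± 4.15 in O and 1.20 ± 1.86 in NB. Its part in the Slc38a6 values was not tested. Slc38a2, the stress-responsive carrier Snat2, was at 2.50 ± 3.50 in OligNBL, 2.37 ± 2.93 in OL, 0.84 ± 1.33 in NB, 0.52 ± 1.02 in NBL and 0.31 ± 0.86 in O. Its OL minus O difference of 2.06 was under 2 with a pseudocount of 10 (0.94), with sets weighted equally (1.49) and without OL cells CRBT172 to CRBT179 (0.59).

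Among chloride and acid-base carriers, Slc12a9 was high in both Tomato+ populations and Slc4a2 in O. Slc12a9, of the cation-chloride cotransporter family (chromosome 5, 137314558 to 137333597, minus strand), was detected in 28 of 29 O cells, from 0 through a median of 4.39 to 16.9 (6.96 ± 5.62), and in 13 of 22 OL cells, up to 20.2 (5.89 ± 6.54). It was listed at 0 in all 27 NBL cells and did not exceed 0.79 in OligNBL. OL cells CRBT183 to CRBT190 (mean 13.7) and O cells CRBT21 to CRBT222 (13.02) were high, and the other O sets had means of 4.31 and 4.37. The neuronal marker Snap25 had its highest mean over sets, 10.0, in the same O cells CRBT21 to CRBT222, beside 7.84 in O cells CRBT195 to CRBT208 and 1.92 in O cells CRBT203 to CRBT215, and 2.62 in OL cells CRBT183 to CRBT190. Its part in the Slc12a9 level was not tested. Slc4a2, the chloride-bicarbonate exchanger Ae2, was at 5.87 ± 5.50 in O (0 through 2.75 to 15.4), 1.21 ± 3.11 in OL and at most 0.29 elsewhere. O cells CRBT203 to CRBT215 lay between 8.48 and 13.1. Exons of Fastk hold 12.8% of its 31-base words. Slc26a3, a chloride-bicarbonate exchanger known from the gut, lay between 0.31 and 1.71.

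Of the 3 lipid-related carriers, Slc27a1 led in OL, Slc10a2 in O and Slc27a4 in OligNBL. Slc27a1, the fatty acid transport protein Fatp1, had OL values from 0 through a median of 4.35 to 16.6 (4.91 ± 3.91) and was above 0 in 19 of 22 cells. Its levels were 0.75 ± 2.50 in O, 0.33 ± 1.13 in OligNBL, 0.58 ± 1.14 in NBL and 0.47 ± 1.27 in NB. OL cells CRBT172 to CRBT179 had a mean of 8.80 and the other OL sets means from 1.85, which lay above all OligNBL sets but below the highest O set at 1.93. Slc10a2, the sodium-bile acid cotransporter, was at 3.45 ± 3.405 in O and between 0.43 and 0.82 in the others, with O cells CRBT203 to CRBT215 at a mean of 6.28. With a pseudocount of 10 its O minus NB difference was 1.28 and its OL minus O difference -1.31. Slc27a4, another fatty acid transport protein, was at 1.00 ± 2.28 in OligNBL and at most 0.12 elsewhere.

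The only glucose carrier measured was Slc2a3 (Glut3), the high-affinity transporter of neurons. Its level was 4.80 ± 4.04 in OligNBL, 2.78 ± 3.55 in OL, 1.13 ± 2.53 in NBL, 0.84 ± 1.59 in O and 0.44 ± 1.46 in NB. Presence was 25 of 40 cells in OligNBL, 4 of 22 in OL and 4 of 27 in NBL, and values above 0 were found in 34, 14 and 7 of these cells. OligNBL values ran from 0 through a median of 4.16 to 18.1, and cells CRBT135 to CRBT142, the leading set, lay at 4.95 or more. The difference over NBL stayed past 2 without any set (2.83 without cells CRBT135 to CRBT142) but was 1.92 with a pseudocount of 10. That over OL, 2.02, was under 2 when any 1 of 5 sets was left out.

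Slc29a4 (Pmat), the plasma membrane monoamine transporter of the nucleoside carrier family (chromosome 5, 142692512 to 142722490, plus strand), was the 1 member with its highest level in NB. NB values ran from 0 through a median of 3.48 to 20.2 (6.39 ± 6.19), and 32 of 37 cells had a value above 0. NBL was at 0.76 ± 1.60, OligNBL at 1.34 ± 2.63, OL at 0.74 ± 2.05 and O at 0.07 ± 0.37, with 1 of 29 O cells above 0. NB cells CRBT23 to CRBT25 (mean 16.5) and CRBT1 to CRBT5 (15.7) held the highest values, and NB cells CRBT27 to CRBT34 had a mean of 1.55, under the 2.98 of NBL cells CRBT58 to CRBT61. These 2 NB sets had the fewest genes detected, with medians of 540.0 and 574. The NBL minus NB difference of -5.63 was -4.17 without NB cells CRBT1 to CRBT5. Slc17a5, the lysosomal sialic acid exporter, lay between 0.13 and 1.52.

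**Figure D4:**
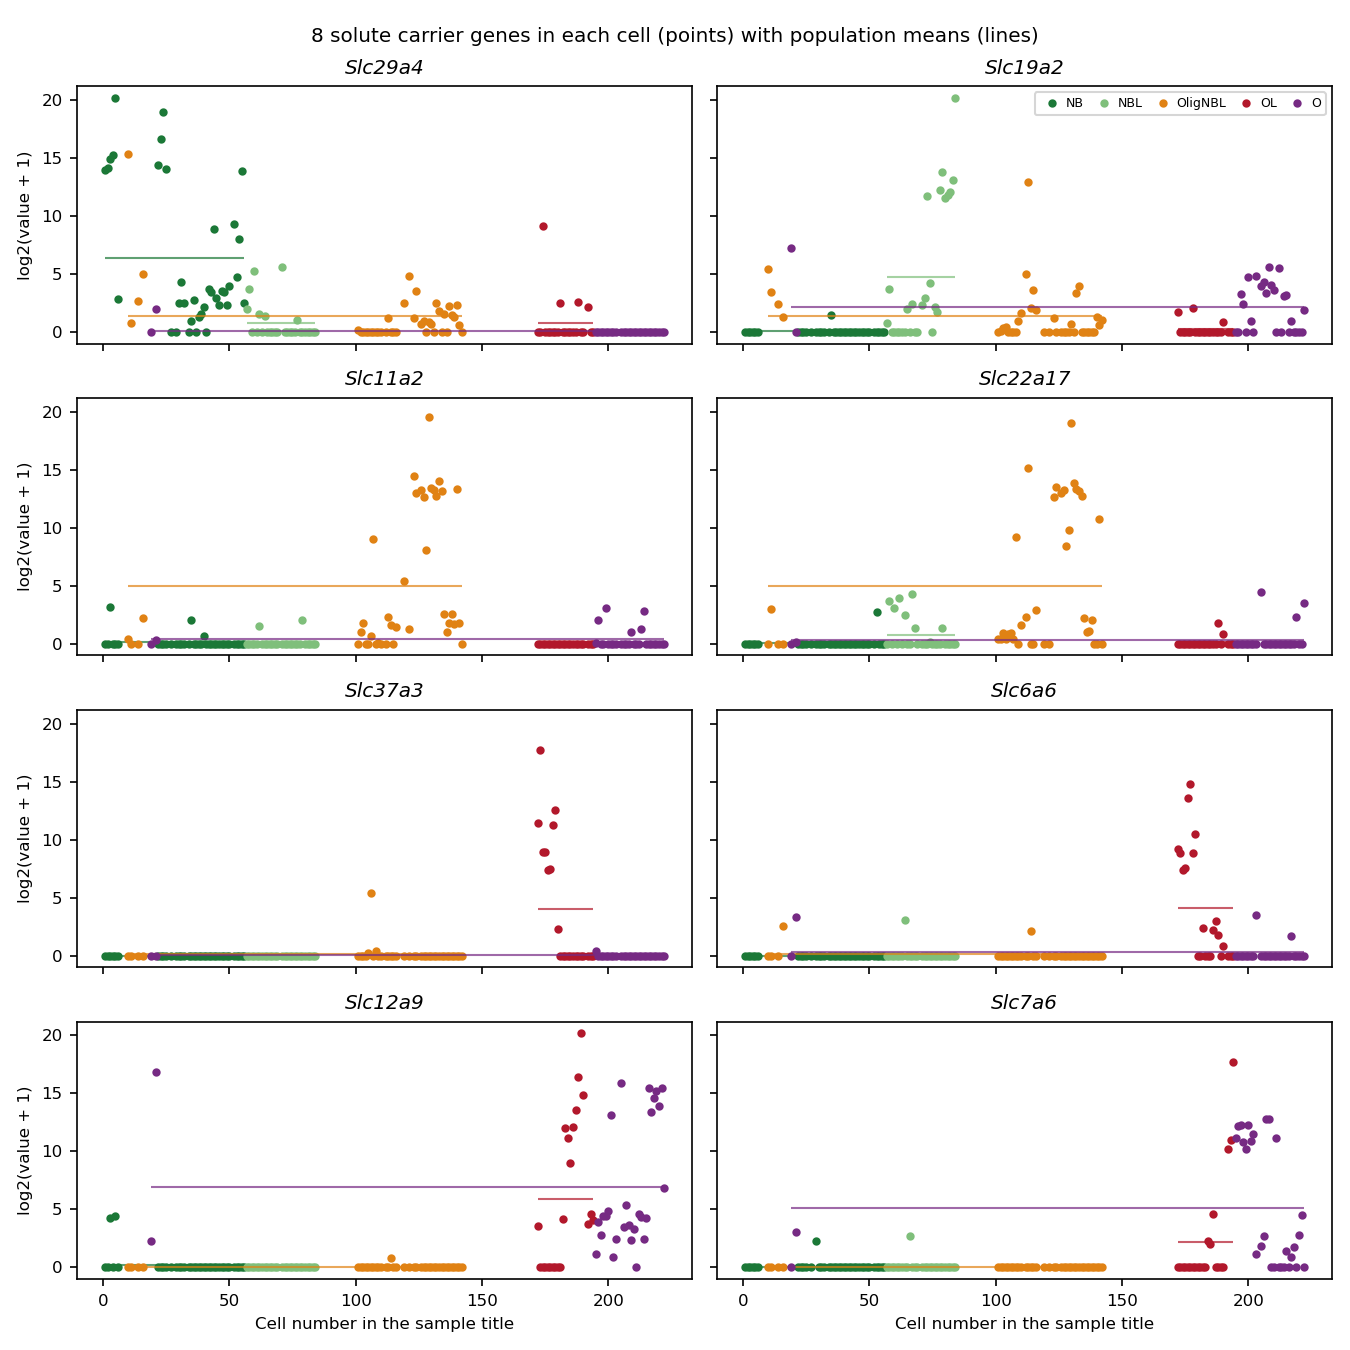
Values of 8 solute carrier genes in each of the 155 cells, as log2(value + 1) on the y axis, against the cell number in the sample title on the x axis. Points are cells, coloured by population, and lines are population means. High values stand in runs of neighbouring cell numbers, such as Slc19a2 in NBL cells CRBT78 to CRBT84, Slc37a3 and Slc6a6 in OL cells CRBT172 to CRBT179, and Slc7a6 across the border of OL (CRBT192 to CRBT194) and O (CRBT195 to CRBT208).

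How many members were carried by 1 set was compared with all genes. A gene was counted as carried by a set where that set's mean exceeded the mean of every other set of the population by at least 4. In OL 10 of 39 members (25.6%) met this, beside 15.98% of all genes, and in OligNBL 8 (20.5%) beside 10.99%. In O 5 members (12.8%) met it beside 11.8%, in NBL 2 (5.13%) beside 11.7% and in NB 0 beside 9.09%. A set mean of at least 4, which the rule needs, was reached in OL by 43.6% of members and 28.9% of all genes, and in OligNBL by 35.9% and 33.1%. Among those, 58.8% of members and 55.3% of genes were carried by 1 set in OL, so in OL the shares lay close once this was required, and in OligNBL 57.1% and 33.2%. Genes that are not members were used to make the sets, and members were not, so the share over all genes is partly built in.

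Other genes were picked by symbols of membrane transport families. They are not all outside the solute carriers, since Slc35b3 and Slco5a1 are named as such but do not match the rule for members. The symbols also take in Abcf1 and Abcf3, ABC family members that are not membrane transporters. Abcf1 was among those higher in O against NB (2.32). Of 25 such genes, 9 were higher and 0 lower in O against NB, beside 12.3% and 13.5% of all genes. In OligNBL against OL 5 were higher and 5 lower (13.2% and 12.2% of all genes), and in OligNBL against NBL 5 and 1 (12.2% and 10.3%). In OL against O 2 were higher and 7 lower (8.36% and 7.92% of all genes), and in NBL against NB 2 and 1 (9.76% and 8.39%). Of these genes 10 belong to the proton pump that acidifies endosomes and lysosomes. In O against NB 4 of the 10 were higher and 0 lower, in OL against O 1 and 3, in OligNBL against OL 3 and 3, in OligNBL against NBL 2 and 1, and in NBL against NB 2 and 1, beside the same shares of all genes. The membrane subunit Atp6v0b was at 8.26 in O, 6.13 in OL, 3.27 in OligNBL, 0.58 in NBL and 0.60 in NB. The lipid transporter Abca2, known from oligodendrocytes, was at 9.65 in O, 5.01 in OL, 0.38 in OligNBL and 0.01 in NB. The sodium pump subunit Atp1b2 was at 4.59 in O and 0.20 in OL, and the pyruvate carrier Mpc1 at 5.24 in OL, 0.94 in O and 1.25 in OligNBL.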

How the data were processed

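Polyadenylated RNA of 155 sorted cells was measured by SMART-Seq2, with a GEO sample for each cell. The submitters' processing notes name kallisto, limma and the build GRCm38, without roles or versions. The file the authors deposited holds a signal named estimated counts by the authors: its 25 highest values were equal in all cells (relative tolerance 1e-06), as after quantile normalization, so no count test was used. In NB cell CRBT2 the lowest value, above 0 and shared by 3069 genes, was set to 0.

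Cells were grouped by the labelled population name. Levels, presence, calls and sets were computed as the report says, by average linkage on Pearson correlation for the sets. The level and call steps were tested on simulated data. Members, lists and rules were chosen with earlier results of these data known. Members named were the up to 6 each way with the largest differences past 2 per comparison, the 2 highest of each role, and a fixed list of which Slc2a3, Slc3a2, Slc7a11, Slc25a4, Slc25a5 and Slc38a2 are described; most others are named too, and 3 members enter the counts over all 39 but are not reported here. Gene positions and 31-base words shared between transcripts came from GENCODE vM21, promoters from RefSeq (GRCm38.p6). Overlapping genes cannot be separated without strand. Doublets were not called. Alternatives were the pseudocount, the call, the set threshold, the genes and cells used and each set left out. Tools were Python 3.11.15, scipy 1.17.1, pandas 2.3.3, numpy 2.4.6 and matplotlib 3.10.9.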

Additional observations from a re-analysis of the deposited data

How the results depend on the processing

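Of the 48 calls of members, 32 kept their side of 2 with a pseudocount of 10 and 48 with a pseudocount of 0.1. The smaller pseudocount widens differences between cells at 0 and cells above it, so it could end few calls. With values up to the most common value above 0 set to 0 (an alternative chosen after seeing the data), 46 were kept. In cells with at least 1000 genes detected (which kept 9 of 22 OL cells) 45 were kept. With the highest cell of each gene left out 42 were kept, and with sets weighted equally 41. Leaving out each set in turn gave 400 values, of which 364 kept the call, 35 fell under 2 and 1 turned direction (Slc20a1, OL minus O, which ran from -0.28 without OL cells CRBT183 to CRBT190 to 4.57 without OL cells CRBT172 to CRBT179). The cause was not tested. Presence of the 26 called members, each in the population of its highest level, left its 95% binomial interval in 17 when counted as a value above 0 and in 11 when counted among the 250 highest genes.

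Counts moved by over 1.5 times as follows. These are counts of members alone. No share of all genes is given under the same alternatives, and the shares above hold for the reported setting only. The moved counts thus do not say whether members differ from other genes. A pseudocount of 0.1 gave 5 members higher and 2 apart in NBL against NB, 13 higher and 7 lower in OL against O, 12 higher, 4 lower and 4 apart in OligNBL against NBL, and 2 lower in O against NB. A pseudocount of 10 gave 5 higher, 2 lower and 1 apart in OL against O and 4 higher in OligNBL against NBL. A call at 3 gave 5 higher and 2 lower in OL against O. Cells with at least 1000 genes gave 3 higher, 2 lower and 4 apart in NBL against NB, 10 apart in OL against O, 11 apart in OligNBL against OL and 2 lower in O against NB. Equal weights gave 2 higher in NBL against NB and 2 lower in OligNBL against NBL. With the most common values at 0, the numbers apart were 0 in NBL against NB, 5 in OL against O and 1 in OligNBL against NBL. Leaving out each set gave 0 to 4 members higher and 0 to 2 apart in NBL against NB, 6 to 11 higher, 3 to 5 lower and 2 to 8 apart in OL against O, 5 to 8 higher, 1 to 3 lower and 1 to 6 apart in OligNBL against NBL, 3 to 8 higher, 8 to 12 lower and 5 to 10 apart in OligNBL against OL, and 5 to 7 higher, 1 lower throughout and 6 to 7 apart in O against NB. Joining sets at 0.35 or 0.5, or with all genes, moved no number apart by over 1.5 times.

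No paired analysis was possible because no label ties a cell to a mouse and no result comes from a test. Depth is unknown, so no limit of detection can be given for a gene listed at 0.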
